A study of Mus musculus with 10 samples.

Results

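The 10 genes described here encode proteins that coat, enlarge, fill or empty the lipid droplets of the liver cell, and they were taken by symbol from a list named for lipid droplets and steatosis. They are the perilipins Plin2, Plin4 and Plin5, the CIDE proteins Cidea, Cideb and Cidec, the lipase Pnpla2 with its inhibitor G0s2, the fatty acid transporter Cd36 and the acyltransferase Mogat1. All 10 are among the 24537 gene symbols of the deposited count table, and all 10 passed the filter on low counts that left 13909 genes for testing. The list was set by gene symbol, not by a rule on values in these livers. Earlier results of these data were known when it was chosen.

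RNA was sequenced from whole livers of male mice, with 10 livers in 3 groups. Young control mice were 9 months old (n = 3) and had received, at 7 months, an adeno-associated virus of serotype 8 with saCas9, the small Cas9 of Staphylococcus aureus, aimed at Rosa26. This locus serves as a neutral target, and the labels give the genotype of these mice as Rosa26-KO. Old control mice were 25 months old (n = 3) and had received the same Rosa26 virus at 23 months. Old Cd44 knockout mice were also 25 months old (n = 4) and had received, at 23 months, the virus with a guide against Cd44, which encodes a surface receptor for hyaluronan. Knockout livers 1 and 2 carried guide 4 and knockout livers 3 and 4 carried guide 2. Every group therefore carried saCas9. It was driven by TBG, a promoter active in hepatocytes, so Cd44 in the other cells of a whole liver was not the target. The design lets 4 questions be asked of each gene: whether its level differs between old and young controls, between knockout and control livers of the same age, between old knockout and young control livers, and between the 2 guides.

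As background, hepatocytes store triglyceride in droplets that consist of a neutral lipid core, a single phospholipid layer and a coat of proteins. Perilipins on the coat shield the core from lipases, and CIDE proteins move lipid between droplets in contact so that one grows at the expense of the other. ATGL, the product of Pnpla2, starts lipolysis with the help of the coactivator encoded by Abhd5 and is held back by the G0s2 protein. Many of these genes are known targets of the nuclear receptors PPAR alpha and PPAR gamma, and several rise when a mouse liver becomes fatty or is fasted. Liver fat, food intake and the time of death were not measured in the data used here.

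Total counts lay between 15821198 and 21710228 per liver, so that 3 counts, taken as the smallest detectable amount, were 0.131 to 0.198 CPM (counts relative to library size, here scaled with TMM factors, which correct for composition). These floors cover counting error only. Cd44 in whole liver did not separate the knockout from the old control livers: it had 23.4 ± 8.19 CPM in old controls (SD, n = 3) and 19.6 ± 6.71 in knockouts (SD, n = 4), and the fitted log2 difference was -0.25 (SE 0.30, adjusted p 0.896). Directions against old controls therefore rest on the labels. Nothing in the labels says that livers of a group came from separate cages or dates, and p-values measure the spread between these livers. The library name of old control liver 3 does not continue the run of the other 9 names, and all 3 age calls among the 10 genes were kept without it. The age estimates without that liver were -1.31 for Plin2, -0.91 for Plin5, -1.70 for G0s2, -0.31 for Plin4 and -1.20 for Cidec on the log2 scale, and Cideb, at -0.37, was then called (adjusted p 0.0394). Against old controls without it, G0s2 had 0.42, Cidea 0.21 and Cidec 1.05, none called. Markers of the cells other than hepatocytes moved with age. The summed level of 10 endothelial markers was 180 to 252 CPM in young, 366 to 401 in old control and 245 to 294 in knockout livers, and 8 of the 10 rose with age. Sums over 8 Kupffer cell markers were 186 to 268, 330 to 1117 and 269 to 533 CPM (5 of 8 rose with age), and sums over 10 stellate cell markers were 172 to 262, 338 to 540 and 301 to 355 CPM (9 of 10 rose). The 10 hepatocyte markers summed to 94802 to 124534 CPM in young and 79803 to 106973 in old control livers. Their part in the results below was not tested. In bulk RNA, fewer cells of a type and less RNA per cell cannot be told apart.

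Per kilobase of annotated exon, a scale on which genes can be set side by side, the mean levels of the 10 genes in young livers ran from 1.07 to 269 CPM. The order there was Plin2 (269 ± 75.4 CPM per kilobase, SD, n = 3), G0s2 (205 ± 73.8) and Cideb (161 ± 12.5), where neighbours overlapped between livers while Plin2 lay above Cideb in all 3. Far below them came Pnpla2 (29.4 ± 3.97), Plin5 (24.4 ± 1.29), Cidec (20.7 ± 9.23) and Cd36 (18.7 ± 9.70), of which Pnpla2 lay above Plin5 in every liver and the last 3 overlapped. Plin4 (6.57 ± 1.11), Cidea (2.92 ± 4.04) and Mogat1 (1.07 ± 0.711) were lowest and overlapped with their neighbours in this order. In old control livers Cideb stood first at 128 ± 7.35 CPM per kilobase, ahead of Plin2 at 110 ± 9.95 and G0s2 at 48.6 ± 29.2 (SD, n = 3), and the livers' values of these 3 genes did not overlap. Knockout livers had the same first 3 genes, with Cideb at 152 ± 9.20, Plin2 at 141 ± 42.7 and G0s2 at 84.4 ± 42.3 CPM per kilobase (SD, n = 4), where Cideb and Plin2 overlapped. Mogat1 was last in all 3 groups. Cideb shares 1136 of its 1488 exon bases with Nop9 on the opposite strand. Its counts, and so its place in these orders, cannot be assigned with certainty.

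**Figure D1:**
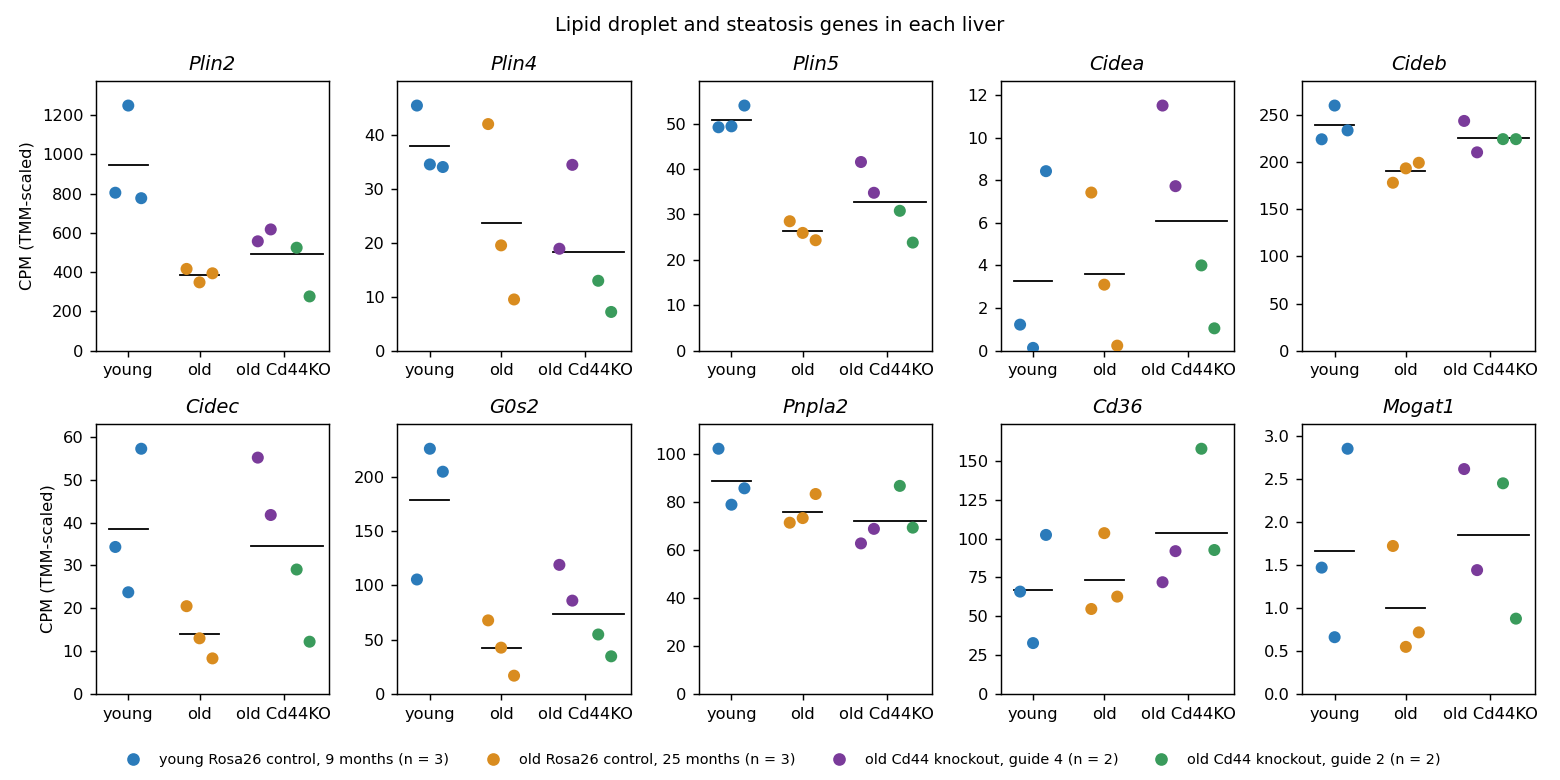
Level of each of the 10 genes in every liver, in CPM on a linear axis from 0, with 1 panel per gene. Points are livers, horizontal lines are group means, and knockout livers are coloured by guide. Plin2, Plin5, Cideb, Cidec and G0s2 have all 3 old control livers below all 3 young livers.

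Old control livers had less Plin2, Plin5 and G0s2 RNA than young control livers. Plin2 encodes the main droplet coat protein of hepatocytes, Plin5 the perilipin that links droplets to mitochondria, and G0s2 the inhibitor of ATGL. These 3 of the 10 genes fell and none rose at an adjusted p under 0.05 (edgeR's quasi-likelihood test, adjustment over all genes). Over all 13909 genes 22.8% were called with age, 8.66% as lower and 14.1% as higher. Fitted changes were below 0 for 8 of the 10 genes, against 47.6% of all genes, and the median log2 fold change of the 10 was -0.71 against 0.04 over all genes tested. In 5 of the 10 (Plin2, Plin5, Cideb, Cidec and G0s2) every old liver was below every young one, a pattern shown by 18% of all genes. Scaled by library totals without TMM factors, the median over all genes moved to 0.34, and 3872 genes were called higher and 354 lower, in place of 1967 and 1205. The same 3 of the 10 genes were still called lower, with log2 fold changes of -0.97 for Plin2, -0.64 for Plin5 and -1.73 for G0s2.

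Plin2 lies on the minus strand of chromosome 4 (86648386 to 86670060, GRCm38), and had 804, 1248 and 777 CPM in young control livers 1 to 3. Old control livers 1 to 3 had 417, 348 and 394 CPM. The groups did not overlap, and the old livers lay closer together than the young ones, with means of 386 ± 34.9 against 943 ± 265 CPM (SD, n = 3 each). The log2 fold change was -1.29 (SE 0.28, adjusted p 0.0129), a level 2.44-fold lower. The call was lost when young liver 2, the highest of the 10, was left out (log2 fold change -1.04, adjusted p 0.0612), and without old liver 2 (-1.22, adjusted p 0.0523).

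Plin5 (chromosome 17, 56111601 to 56117596, minus strand) had 49.2, 49.4 and 54.0 CPM in young livers and 28.5, 25.9 and 24.3 CPM in old control livers. Within each group these livers differed little, and the gap between the groups was larger than either range. Means were 50.9 ± 2.70 and 26.3 ± 2.11 CPM (SD, n = 3 each), so that the fold change was -0.95 on the log2 scale (SE 0.17, adjusted p 0.00911). Plin5 kept its call without any one of the 6 livers, with adjusted p up to 0.0428. Plin4 (56100591 to 56109803, same strand), a perilipin best known from fat and muscle, lies 1797 bases from Plin5. It had 45.4, 34.5 and 34.0 CPM in young livers and 42.0, 19.5 and 9.49 CPM in old ones. Old liver 1 lay inside the young range and the other 2 below it, and the log2 fold change of -0.68 (SE 0.54) did not pass the test (adjusted p 0.378).

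G0s2 (chromosome 1, 193272161 to 193273217, minus strand), whose gene lies within the bounds of Lamb3 on the other strand without sharing exon bases, had 105, 226 and 205 CPM in young livers. Old control livers had 67.7, 42.6 and 16.8 CPM. All old values were below the lowest young one, but both groups were spread, by 2.14-fold in young and 4.03-fold in old livers. The log2 fold change of -2.08 (SE 0.53, adjusted p 0.0212) was the widest of the 10 genes, 4.21-fold lower in old livers. It was lost without young liver 2 (adjusted p 0.0794), young liver 3 (0.0577) or old liver 2 (0.0708).

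The promoters of the 3 genes that fell with age are shown because they moved together. They come from the RefSeq promoter table (GRCm38.p6), which held 9 of the 10 genes, and are written 5′ to 3′ on the gene's own strand, all 3 being the minus strand. Only bases before the first annotated exon of the gene are given, and capitals mark motif matches. The G0s2 stretch also holds exon bases annotated to 1 other gene.
Plin2, chr4:86670061-86670309: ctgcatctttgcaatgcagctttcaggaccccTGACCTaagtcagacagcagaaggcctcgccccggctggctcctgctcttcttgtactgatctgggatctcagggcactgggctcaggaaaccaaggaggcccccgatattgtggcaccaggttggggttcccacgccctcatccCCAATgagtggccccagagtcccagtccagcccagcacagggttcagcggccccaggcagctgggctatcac
Plin5, chr17:56117597-56117798: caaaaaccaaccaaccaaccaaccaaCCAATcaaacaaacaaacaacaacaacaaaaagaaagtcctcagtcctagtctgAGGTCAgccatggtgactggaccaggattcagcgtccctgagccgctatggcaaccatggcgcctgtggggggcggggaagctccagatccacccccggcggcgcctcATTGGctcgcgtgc
G0s2, chr1:193273218-193273438: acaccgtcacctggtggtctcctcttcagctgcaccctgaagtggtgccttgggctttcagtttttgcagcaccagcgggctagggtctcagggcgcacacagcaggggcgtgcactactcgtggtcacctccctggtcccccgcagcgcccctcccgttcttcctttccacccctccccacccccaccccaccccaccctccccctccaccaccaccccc

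Motifs were searched on both strands over the 250 bases before each start. AGGTCA, the core that nuclear receptors such as the PPARs bind, was present in 3 of 11 member promoters (Plin2, Plin5 and Cd36). It was in 14% of all 32851 promoters. In Plin2 it lies on the opposite strand, 218 bases before the start, and in Plin5 on the gene's strand, 170 bases before it. The direct repeat AGGTCANAGGTCA was in none of the member promoters and in 0.0335% of all, and the relaxed form AGGNCANAGGNCA in none and 0.338%. CCAAT was found in 4 of the 11 member promoters (Plin2, Plin4, Plin5 and Cd36) and in 33.8% of all. TATAAA was found in 1 of the 11 (Cideb) and in 12.4% of all, and the E-box CACGTG in none and in 6.02%. CCAAT lies 73 bases before the start of Plin2, and in Plin5 it was found on the gene's strand 224 bases and on the other strand 62 bases before the start. All Plin5 matches belong to the start at 56117548, which is not among the starts of the GENCODE annotation. The Plin2 and G0s2 starts used here are not among them either. The window of another Plin5 start, 56117298, which GENCODE holds, had none of these motifs. G0s2 held none of these motifs in its window. The AGGTCA motif is contained in the direct repeats, and a match of this kind is a description of the letters only.

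Among the CIDE genes, none passed the test with age. Cidec (chromosome 6, 113424634 to 113435760, minus strand), the CIDE protein of large droplets in fat cells and fatty livers, had 34.3, 23.7 and 57.3 CPM in young livers. Old control livers had 20.5, 13.0 and 8.30 CPM. All old livers were below all young ones, and the log2 fold change was -1.47 (SE 0.50), with an adjusted p of 0.0567, just above the threshold. DESeq2 on the same counts called Cidec and Cideb lower as well, for 5 genes in all. Without old liver 1 the edgeR test also called Cidec, and without old liver 3 it called Cideb.

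Cideb (chromosome 14, 55754050 to 55758458, minus strand), the CIDE protein that hepatocytes use in loading very low density lipoprotein, varied little within a group. It had 224, 260 and 234 CPM in young and 178, 194 and 199 CPM in old control livers. The groups did not overlap, and the difference was small, with a log2 fold change of -0.33 (SE 0.12, adjusted p 0.0685). Of its 1488 exon bases 1136 are shared with Nop9 on the opposite strand, and how the authors' counting used strand is not given in the sources used here. Nop9 had a log2 fold change of -0.31 with age and 0.30 between knockout and old control livers, so the counts of this pair cannot be assigned with certainty.

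Cidea (chromosome 18), a CIDE gene of brown fat that appears in fatty liver, was counted 2 to 198 times per liver. Old control livers had 7.42, 3.10 and 0.238 CPM and young livers 1.22, 0.132 and 8.43 CPM, a 63.9-fold spread. The lowest young value is 2 counts, below the 3 counts taken as the smallest detectable amount. No difference between these groups was detectable against such a spread (log2 fold change 0.13, SE 1.16, adjusted p 0.945), and the sign turned without young liver 1, young liver 2 or old liver 1. Mogat1 (chromosome 1, 78510991 to 78538173, plus strand), which makes diacylglycerol from monoacylglycerol, had 10 to 52 counts per liver. It reached 1.47, 0.660 and 2.85 CPM in young and 1.72, 0.547 and 0.715 CPM in old control livers, with overlapping ranges and a log2 fold change of -0.74 (SE 0.60, adjusted p 0.384). Mogat1 shares 200 exon bases with BC035947 on the opposite strand.

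Young liver 3 had the highest value of the 10 livers for Plin5, Cidec and Mogat1 and the highest of the young livers for Cidea and Cd36. It was also the only liver with more than 1 count of Adipoq (29 counts), Plin1 (9) and Lep (5), which define fat cells, and it had 12 counts of Retn against at most 1 elsewhere. Ucp1, the marker of brown fat, was at 0 in that liver and at 3 counts or fewer in the others. The adipocyte list as a whole had 5 of 10 markers past the filter and 1 called with age, Fabp4, which rose. Its summed level was 1411 to 1787 CPM in young, 1655 to 1982 in old control and 1335 to 1762 in knockout livers, nearly all of it Cdo1, which hepatocytes also express. The part of these counts in the young values was not tested. Without young liver 3 the age difference of Plin2 and Plin5 was still called, and that of G0s2 was not (edgeR adjusted p 0.0577). Cidec then had a log2 fold change of -1.07, and the Cidea estimate was 2.36.

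Pnpla2 (chromosome 7, 141455198 to 141460743, plus strand), the gene of the lipase ATGL, had 102, 78.8 and 85.7 CPM in young and 71.3, 73.3 and 83.3 CPM in old control livers. The ranges overlapped, and the log2 fold change of -0.23 (SE 0.15) did not pass the test (adjusted p 0.288). Scaling by library totals alone turned its sign. The number of G0s2 reads per Pnpla2 read sets the inhibitor beside the lipase within a liver. This ratio was 1.03, 2.86 and 2.39 in young livers and 0.949, 0.581 and 0.202 in old control livers. Every old liver was below every young one, though old liver 1 lay close to young liver 1, with group means of 0.577 ± 0.374 and 2.09 ± 0.950 (SD, n = 3 each). The ratio was not tested apart from the fall of G0s2 itself.

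**Figure D2:**
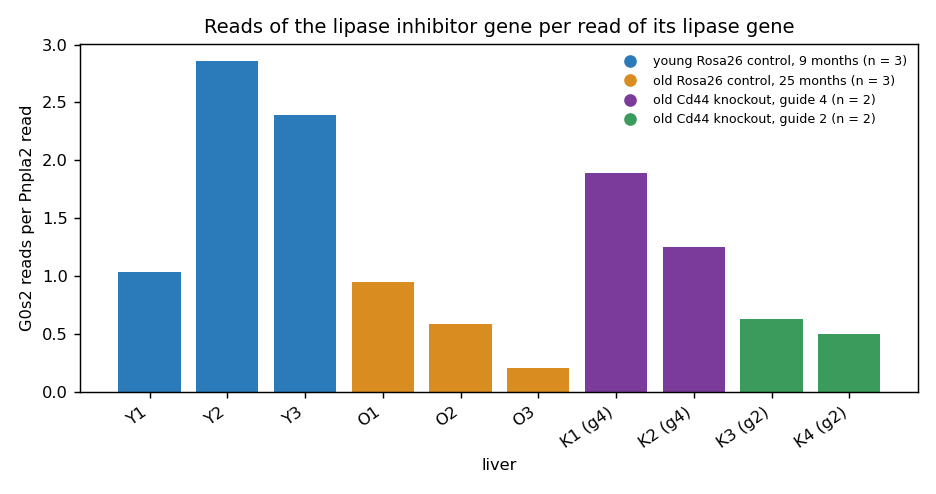
G0s2 reads per Pnpla2 read in each of the 10 livers, 1 bar per liver on an axis from 0, coloured by group and guide. The bars of young livers 2 and 3 stand highest at 2.86 and 2.39, old control liver 3 is lowest at 0.202, and both guide 4 livers exceed both guide 2 livers.

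Cd36 (chromosome 5, 17781690 to 17888801, minus strand), which takes up long-chain fatty acids in hepatocytes, macrophages and endothelium, did not follow the genes above. It had 65.8, 32.7 and 102 CPM in young and 54.7, 103 and 62.6 CPM in old control livers. The ranges overlapped almost fully, and the log2 fold change of 0.14 (SE 0.40, adjusted p 0.828) turned negative without young liver 2 or old liver 2. Old liver 2, the highest old control for Cd36, also had the highest sum of Kupffer cell markers (1117 CPM). Old liver 3 had a sum of 747 CPM with 62.6 CPM of Cd36. Knockout liver 3, with the most Cd36 (158 CPM), had a sum of 346 CPM. Whether the other cell types took part in the Cd36 values was not tested.

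**Figure D3:**
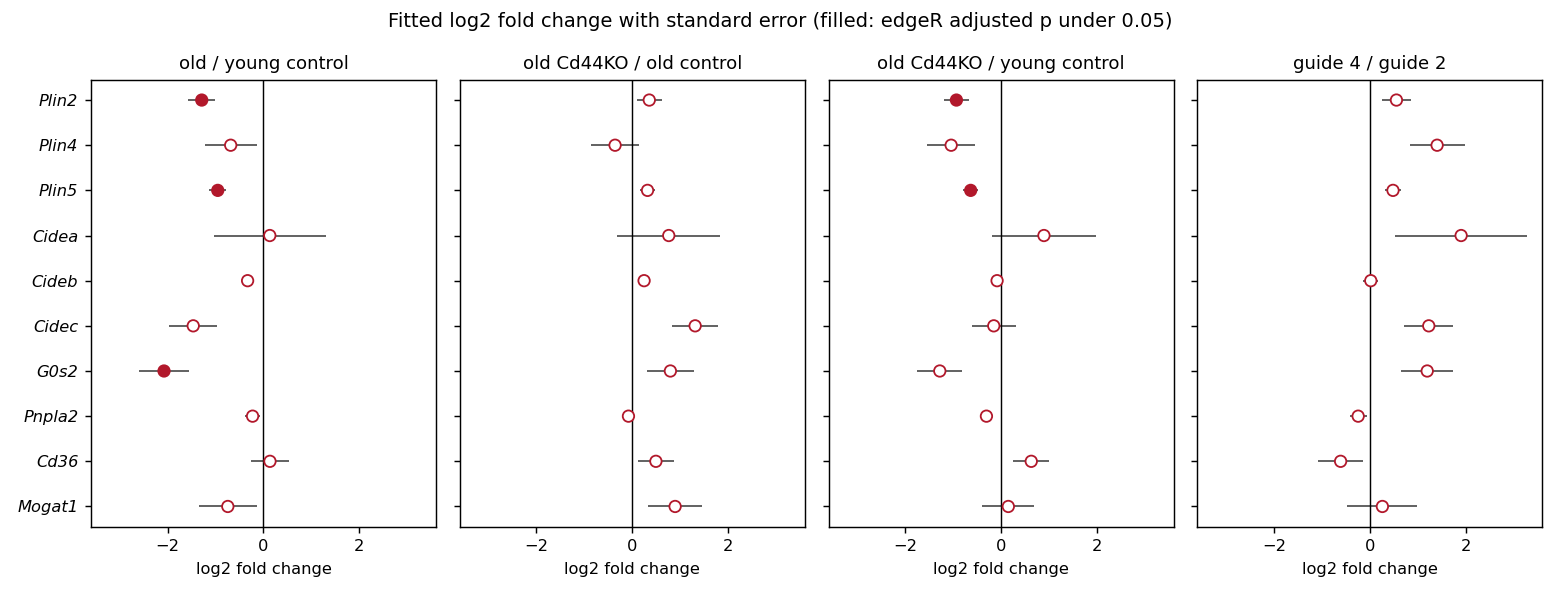
Log2 fold change of each of the 10 genes in 4 comparisons: old against young control, old knockout against old control, old knockout against young control, and guide 4 against guide 2. Points are edgeR estimates, bars are 1 SE, and filled points passed an adjusted p of 0.05. Filled points are Plin2, Plin5 and G0s2 for age and Plin2 and Plin5 for knockout against young.

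Between knockout and control livers of the same age, no change was detected in any of the 10 genes. None of the 10 was called, and none of the 13909 genes was (0% called by edgeR's quasi-likelihood test). By edgeR 916 genes (6.59%) had an unadjusted p under 0.05, and DESeq2 called 8 genes, none of them among the 10. Fitted values were above 0 for 8 of the 10 genes, against 45.6% of all genes, and the median of the 10 was 0.42 against -0.02 over all genes tested. One gene of the 10, Cideb, had all 4 knockout livers above all 3 controls, as had 2.84% of all genes. This comparison uses the same 3 old control livers as the age comparison, with the opposite sign. A low value in these controls lowers a gene's age estimate and raises its estimate here, so the estimates are not independent. Whether the knockout offsets the fall with age was therefore not tested.

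Cidec was the single member with an unadjusted p under 0.05. Knockout livers 1 to 4 had 55.2, 41.8, 29.1 and 12.2 CPM, against 20.5, 13.0 and 8.30 in old controls. Knockout livers 1 to 3 exceeded every old control and liver 4 fell among them. The log2 fold change was 1.31 (SE 0.48), with an edgeR p of 0.0188 before and 0.744 after adjustment. Cideb had 244, 211, 225 and 225 CPM in knockout livers, a log2 fold change of 0.25 (SE 0.11, adjusted p 0.748).

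G0s2 had 119, 85.9, 54.7 and 34.6 CPM in knockout livers, so livers 1 and 2 were above all old controls and livers 3 and 4 among them (log2 fold change 0.80, SE 0.49, adjusted p 0.794). Its reads per Pnpla2 read were 1.89, 1.25, 0.631 and 0.500. Plin2 had 557, 618, 524 and 276 CPM, so that 3 knockout livers lay above and 1 below the whole old control range (log2 fold change 0.35, SE 0.26, adjusted p 0.812). Plin5 had the same order against controls, with 41.5, 34.8, 30.8 and 23.8 CPM and a log2 fold change of 0.32 (SE 0.16, adjusted p 0.762). Liver 4 was the lowest of all 10 livers for Plin2, Plin4 and Plin5.

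The ranges of the remaining 5 genes overlapped those of the old controls as well. Plin4 had 18.9, 34.4, 13.0 and 7.18 CPM in knockout livers (log2 fold change -0.36, SE 0.51, adjusted p 0.908), and its sign turned without old control liver 1. Pnpla2 had 62.7, 68.8, 86.7 and 69.3 CPM (log2 fold change -0.08, SE 0.14, adjusted p 0.928). Cd36 reached 71.9, 91.9, 158 and 92.6 CPM, with liver 3 the highest of all 10, and a log2 fold change of 0.49 (SE 0.37, adjusted p 0.814). Cidea had 11.5, 7.72, 4.0 and 1.05 CPM and Mogat1 2.61, 1.44, 2.45 and 0.875 CPM, with log2 fold changes of 0.76 (SE 1.07) and 0.89 (SE 0.56), both at an adjusted p of 0.794 or more.

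**Figure D4:**
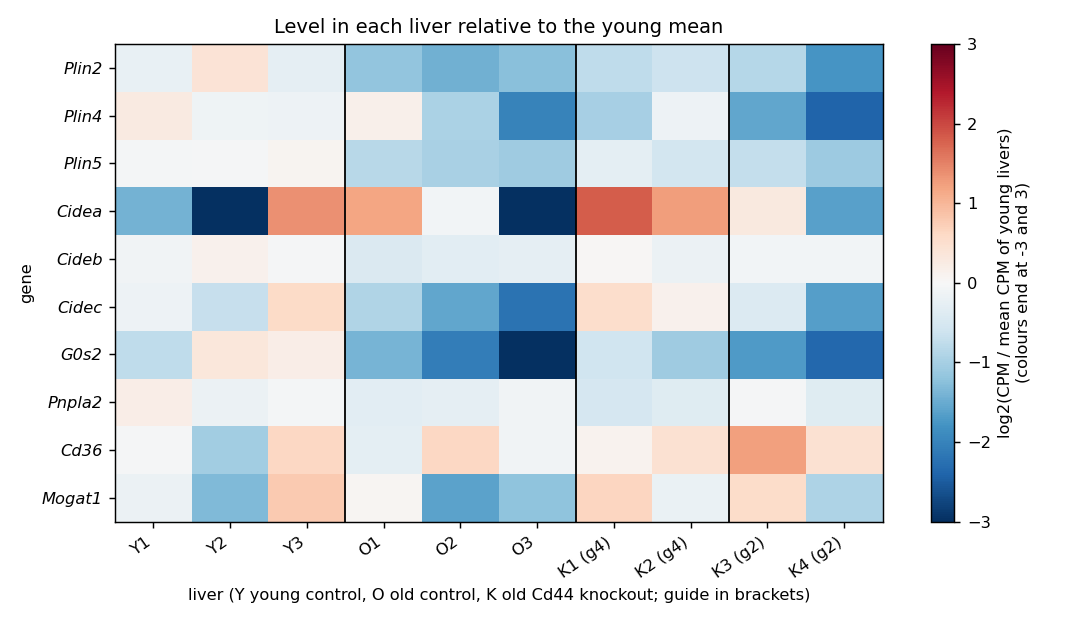
Level of each gene in each liver as the log2 ratio of its CPM to that gene's mean CPM in young livers, with colours that end at -3 and 3 and with young livers (Y1 to Y3), old controls (O1 to O3), guide 4 knockouts (K1, K2) and guide 2 knockouts (K3, K4) in columns. Values run from -4.63 (Cidea in young liver 2) to 1.82 (Cidea in knockout liver 1).

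Against young controls, old knockout livers had less Plin2 and Plin5 RNA. Plin2 had a log2 fold change of -0.93 (SE 0.26, adjusted p 0.0412) and Plin5 of -0.64 (SE 0.16, adjusted p 0.0342), and in both every knockout liver lay below every young liver. These 2 of 10 genes were called, against 11.6% of all genes in either direction and 4.97% as lower, and not overlapping and lower were the same 2, against 18.8% of all genes. This comparison uses the same young livers as the age comparison. G0s2 had a log2 fold change of -1.28 (SE 0.47, adjusted p 0.0915), with knockout liver 1 inside the young range, and was called in a fit of only these groups (-1.28, adjusted p 0.0319). Plin4 had -1.04 (SE 0.51, adjusted p 0.172) and Pnpla2 -0.31 (SE 0.14, adjusted p 0.150). Cidec, at -0.15 (SE 0.46), Cideb, at -0.08 (SE 0.11), Mogat1, at 0.15 (SE 0.54), Cidea, at 0.89 (SE 1.09), and Cd36, at 0.63 (SE 0.38), had overlapping groups and adjusted p of 0.261 or more. The Cidea estimate ran from 0.33 without young liver 2 to 3.13 without young liver 3. The median of the 10 was -0.23 against 0.03 over all genes tested. The Plin2 call was lost in each of the 7 fits without 1 liver, and the Plin5 call in 6 of them, with knockout liver 1 the exception. Scaled by library totals, none of the 10 was called and the median over all genes was 0.35, with 3332 genes higher and 253 lower in place of 923 and 691, and the signs of Cideb, Cidec and Pnpla2 turned.

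Between the 2 guides no change was called in any of the 10 genes. With 2 livers per guide, both guide 4 livers exceeded both guide 2 livers for Plin2, Plin4, Plin5, Cidea, Cidec and G0s2, and both lay below for Pnpla2 and Cd36. Guide values of all genes failed to overlap in 18.1% (higher) and 20.4% (lower) of cases. None of the 10 was called, against 0.0216% of all genes (3 genes), and by edgeR 603 of all genes had an unadjusted p under 0.05, with 73 called by DESeq2. Plin4 averaged 26.7 CPM with guide 4 and 10.1 with guide 2, and its log2 difference was 1.40 (SE 0.57, with an unadjusted edgeR p of 0.0345 and an adjusted p of 0.9996). Cidec averaged 48.5 and 20.6 CPM (log2 fold change 1.23, SE 0.51), Plin5 38.2 and 27.3 CPM (0.48, SE 0.17) and G0s2 102 and 44.6 CPM (1.19, SE 0.55), at adjusted p of 0.894 or more. Unadjusted edgeR p were 0.0359 for Cidec, 0.0157 for Plin5 and 0.0539 for G0s2. Plin2, at 0.55 (SE 0.31), and Cidea, at 1.90 (SE 1.37), were also above 0, and Cideb, at 0.02 (SE 0.15), and Mogat1, at 0.26 (SE 0.73), overlapped. Pnpla2 had -0.25 (SE 0.18) and Cd36 -0.61 (SE 0.47). No gene of the cell type marker lists was called between guides, where 0.0216% of all genes were. Medians of these lists ran from -0.82 (cholangiocyte, 5 of 5 lower with guide 4) to 0.65 (T and NK cell, 6 of 7 higher). Kupffer cell markers had a median of 0.64 (7 of 8 higher). These shifts were not tested.

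Set against the old controls one guide at a time, the guide 4 livers gave Cidec 1.80 (SE 0.45), G0s2 1.27 (SE 0.49), Plin2 0.60 (SE 0.28) and Plin5 0.54 (SE 0.15) on the log2 scale. The guide 2 livers gave 0.57 (SE 0.46), 0.08 (SE 0.50), 0.05 (SE 0.28) and 0.06 (SE 0.15) for the same genes. None of these passed, with adjusted p of 0.859 or more, where 0% of all genes were called with guide 4 and 0.0216% with guide 2, and both sets use the same 3 controls. With guide 2 the Plin4 estimate was -1.23 (SE 0.54, adjusted p 0.701) and with guide 4 it was 0.18 (SE 0.50, adjusted p 0.991). For Cd44 itself the guide 2 livers stood at 17.6 and 13.1 CPM and the guide 4 livers at 18.9 and 29.01, a difference that was not called (log2 0.64, SE 0.36, adjusted p 0.9996) and was 0.30 without knockout liver 2.

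Around the 10 genes, 6 lists of other genes of droplet biology were examined, none of which holds a member. In the list of other droplet proteins, 1 of 13 tested genes rose and 2 fell with age (median log2 fold change -0.19), among them Mlx, a transcription factor that sits on droplets (-0.61, adjusted p 0.0123). Over all genes tested, 14.1% rose and 8.66% fell with age, shares to be read beside this and the following counts. In triglyceride synthesis 1 of 12 rose and 1 fell (median 0.07). The gene that rose was Gpat2, an acyltransferase (2.497, SE 0.45, adjusted p 0.00887), from 1.05 ± 0.178 to 5.99 ± 3.18 CPM (SD, n = 3 each), and the one that fell was Lpin1, a phosphatidate phosphatase (-0.99, adjusted p 0.0152). In lipolysis and lipophagy 1 of 13 rose and 4 fell (median -0.25).

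Abhd5, the coactivator of ATGL, fell with age, as did G0s2, which encodes the inhibitor of that lipase. It had 45.0, 52.2 and 51.5 CPM in young and 21.2, 23.0 and 25.7 CPM in old control livers, and 47.1, 24.7, 27.3 and 27.8 in knockout livers. The old controls lay below all young livers and 1 knockout liver, with guide 4, reached the young range. The log2 fold change with age was -1.09 (SE 0.22, adjusted p 0.0101). Pnpla3, a droplet lipase family member known for a human fatty liver allele, had 5.45, 1.45 and 3.99 CPM in young and 57.2, 38.2 and 3.82 CPM in old control livers. Old liver 3 lay inside the young range and the other old livers far above it (log2 fold change 3.18, SE 0.79, adjusted p 0.0196). The estimate was 2.52 without old liver 1 and 3.70 without old liver 3, and the call was lost with limma voom (adjusted p 0.141) and in a fit of only these groups (0.0568).

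In the list of fatty acid uptake, binding and activation 4 of 16 rose and 3 fell with age (median -0.22), and the widest change was a rise of Lpl, lipoprotein lipase (1.94, SE 0.41, adjusted p 0.0123). Among transcription factors and coregulators 2 of 17 rose and 1 fell (median -0.08). Srebf1, the driver of fatty acid synthesis genes, had 121, 82.6 and 96.4 CPM in young and 248, 275 and 210 CPM in old control livers without overlap (1.29, SE 0.20, adjusted p 0.00762), and Hnf4a, a hepatocyte identity factor, fell (-0.96, adjusted p 0.0147). Of 16 tested PPAR alpha target genes 1 rose and 5 fell (median -0.53). Angptl4, an inhibitor of lipoprotein lipase, had 164, 227 and 152 CPM in young and 59.2, 47.3 and 57.8 CPM in old control livers, again without overlap (-1.73, SE 0.28, adjusted p 0.00772). Acot1, a cytosolic acyl-CoA thioesterase, fell as well (-1.51, adjusted p 0.0203). The target gene that rose was Ucp2 (1.14, SE 0.30, adjusted p 0.0223).

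Of the 20 pathway genes singled out with age by the rule for naming them, 3 (Gpat2, Srebf1 and Angptl4) kept their call without any one liver. Abhd5, Mlx and Lpl lost it without young liver 2, with adjusted p of 0.0517, 0.0589 and 0.0593, and the Lpl estimate fell to 1.22 without old liver 2. Lpin1 lost it without young liver 3 (adjusted p 0.0539). Hnf4a lost it without young liver 2 or old liver 2, and Pnpla3 and Acot1 without young liver 2, young liver 3 or old liver 2. Ucp2 lost it without young liver 1, young liver 2, young liver 3 or old liver 2.

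By edgeR none of the 87 tested genes in these 6 lists was called between knockout and old control livers or between guides. DESeq2 called none of them against old controls and 1, Mgll, between guides. The genes with the smallest p of each list between knockout and old control livers were Plin3 (-0.26), Agpat2 (0.19), Abhd5 (0.44), Fabp4 (-0.79), Cebpa (0.30) and Pdk4 (-0.46 on the log2 scale), with adjusted p of 0.744 or more. Between guides the smallest p was that of Mgll, the monoacylglycerol lipase, which had a log2 difference of 0.87 with an adjusted p of 0.250 in edgeR and of 0.000127 in DESeq2. Against young controls the knockout livers had called genes in each list, 1 rising and 1 falling of the other droplet proteins, of triglyceride synthesis, of lipolysis and of the transcription factors, 1 rising and 2 falling of fatty acid uptake, and 3 falling of the PPAR alpha targets, where 6.64% of all genes rose and 4.97% fell. Of the 14 genes that the rule names there, 13 lost their call in at least 1 of the 7 fits that left out a liver, and 10 of these lost it in 6. Srebf1 had a log2 fold change of 1.38 (SE 0.19, adjusted p 0.00714) there and kept its call without any one liver. Angptl4 had -1.44 (SE 0.25, adjusted p 0.0130), which was lost without young liver 2 (adjusted p 0.0746). These values share the young livers with the age comparison.

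**Figure D5:**
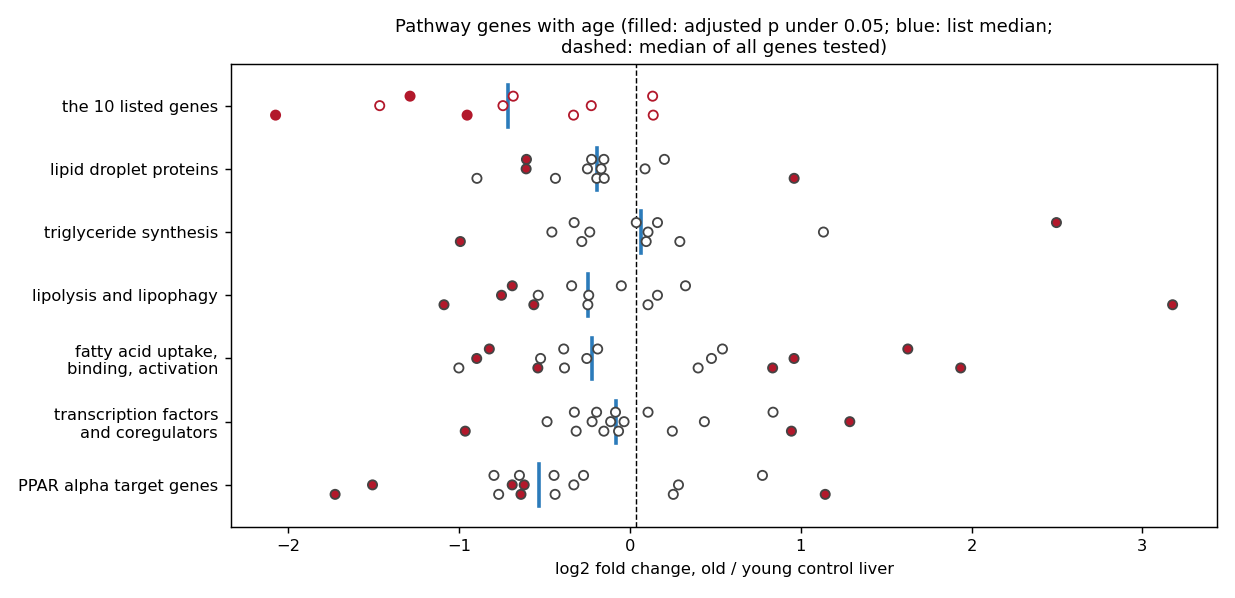
Log2 fold change between old and young control livers for the tested genes of the 10-gene list and of 6 lists of related genes, 1 point per gene, filled where the adjusted p was under 0.05, with a blue line at each list's median and a dashed line at the median of all genes tested. The 10 genes have a median of -0.71 and the PPAR alpha targets of -0.53, against 0.04 over all genes tested.

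Likeness of pattern was measured by Pearson's r of log2 CPM over the 10 livers against the other genes tested. It is a description, since all genes of a liver share its group, library and depth. The genes named had the highest r of 13908 searched, and with 10 livers such a search favours high values. For Plin2 the nearest genes were Msra (0.953), 2010003K11Rik (0.944) and Mmadhc (0.941), and for Plin5 they were C2cd2l (0.968), Wrnip1 (0.955) and Exosc2 (0.954). G0s2 was nearest to Zfp708 (0.958), Gabarapl2 (0.954) and Mrpl34 (0.949). Cidec was nearest to Fabp2 (0.946), which encodes an intestinal-type fatty acid binding protein, then Dda1 (0.893). Pnpla2 was nearest to Foxo1 (0.973), a transcription factor restrained by insulin, and Cd36 to Cdyl (0.976) and Themis (0.924). Cideb was nearest to Ginm1 (0.966), Plin4 to Ap5s1 (0.932), Cidea to Clstn3 (0.952) and Mogat1 to Pigl (0.889). No member was among the 3 nearest genes of another member.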

How the data were processed

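Raw counts, whole reads per gene symbol for each liver without normalization, were deposited by the authors as 1 table. Per the labels' protocols, polyadenylated RNA went through the Watchmaker mRNA kit and was read in pairs on an Element AVITI. FastQC 0.11.8, Trim Galore 0.4.4, STAR 2.5.3a, HOMER and the build mm10 are listed in the submitters' processing notes. Which tool counted, against which annotation and with which strand setting, is not given in the sources used here.

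Counts were tested with edgeR 4.0.16 in R 4.3.3 (quasi-likelihood test, 1 coefficient per group over 10 livers, TMM factors, filterByExpr with minimum count 10 and total 15). A second fit gave each guide its own coefficient. P-values were Benjamini-Hochberg adjusted over 13909 genes and called under 0.05. The SE is the size of the log2 fold change over the square root of F. The biological coefficient of variation was 21.8%. Alternatives used DESeq2 1.42.0, limma voom 3.58.1, other scalings and filters, guides alone and each liver left out. Replicate numbers only name livers. Replicates differed beyond counting noise (chi-square per degree of freedom at least 20.3). Positions are from GENCODE M21. The steps were tested on simulated counts.

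The 10 genes, the pathway and marker lists and the tests were chosen with earlier results of these data known. From each list the rule names up to 4 genes per comparison, the called ones of widest change with a mean of at least 1 CPM, or the one of smallest p where none was called. A selection is given.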

Additional observations from a re-analysis of the deposited data

Results flagged for a closer look

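Among the 4 knockout livers, the summed level of 7 T and NK cell markers in liver 2 was 25.7 CPM, against 9.69 to 12.1 in the other 3, a gap of 0.847 of the group's range. Of 22 values scanned in this way over the knockout livers (the 10 genes, Cd44, the Rosa26 transcript, the G0s2 to Pnpla2 ratio and the marker sums) it was the only one past Dixon's limit for 4 values, and chance gives about 1.1. Liver 2 was neither the highest nor the lowest of all 10 livers for any of the 10 genes. The groups of 3 livers were not scanned.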

How the results depend on the processing

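No paired analysis was possible because no label numbers the livers within a group. Over 548 fits of single genes that left out 1 liver, 393 kept direction and side of the threshold, 138 lost a call, 3 gained one and 14 turned sign; over 557 other alternatives the numbers were 514, 28, 7 and 8. With age, 1192 genes were called in a fit of only these groups, DESeq2 called 5 of the 10 genes, and leaving out 1 liver gave 396 (without young liver 2) to 5327 (without old liver 3) genes and 1 to 4 of the 10. Between knockout and old controls DESeq2 called 8 genes and guide 2 livers alone gave 3, and leaving out 1 liver gave 0 to 3, with none of the 10 in any fit. Between knockout and young livers DESeq2 called 2803 genes, voom 969 with 1 of the 10, library totals 3585 with 0 and only these groups 4223 with 3. Leaving out 1 liver gave 56 (without young liver 2) to 1652 there, and 0 to 1 of the 10. Between guides DESeq2 called 73 and a fit without the filter 10, and 0 remained without any one liver, where a lone liver is assumed to vary like the others.

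Signs turned with library totals, chosen after seeing the data, for Pnpla2 with age (0.073) and, against young, for Cideb (0.24), Cidec (0.14) and Pnpla2 (0.010). Against old controls they turned for Cidea (-0.48) and Pnpla2 (0.038) with guide 2 alone and for Plin4 (0.18) and Cd44 (0.037) with guide 4 alone. Leaving out 1 liver, log2 fold changes ran with age from -0.96 to 2.36 for Cidea and -0.20 to 0.57 for Cd36, for Plin4 against old controls from -0.86 to 0.35, against young from -0.47 to 0.25 for Cidec and -0.23 to 0.78 for Mogat1, and between guides from -0.093 to 0.119 for Cideb and -0.28 to 1.20 for Mogat1. The causes were not tested. Depth limits Cidea and Mogat1, which had as few as 2 and 10 counts.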
